A study of Mus musculus with 3 samples.

Results

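The single-cell comparison described here set 10 cells named knock, from L929 cultures with a knockdown of Rrm2, against 10 cells named control, all read by CBTi-seq. L929 is an established mouse fibroblast line, labelled as connective tissue. The cells were the 20 columns of 1 sample, chosen by the group in the column name, and that sample was 1 of 3 in the series. The other samples, control and knock cells read at the 3′ ends of transcripts, were not used here. The sources used here do not say how the knockdown was made or with which reagent, although the series title speaks of gene-edited cells. They also do not say what the control cells received, or whether a group was 1 culture or several. Both groups share the cell line, the picking of cells by capillary after trypsin, and 1 library. The columns are called cells after the protocol, although their names do not say so.

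Rrm2 encodes the small subunit of ribonucleotide reductase, which holds an iron centre and works with the large subunit Rrm1. The enzyme makes the deoxyribonucleotides (dNTPs) that DNA replication and repair consume. When dNTPs run short, replication forks stall and checkpoint signalling can lead to p53 activity. Cells can also supply dNTPs by salvage, and Rrm2b is an alternative small subunit that p53 controls.

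Each value is a count of molecular identifiers (UMIs) scaled to the cell's total (CPM, in the usual sense). The cells of a group came from 1 sample and are not replicates of the knockdown. No test was therefore made and no p-value is given. Differences are described by the log2 ratio of the group medians (each plus 1 CPM, knock over control) and by cell pairs. Of the 100 pairs of 1 control cell and 1 knock cell, the number in which the knock cell was higher is given, with ties shared equally. A gene is called separated where that number is at least 90 or at most 10. Genes with a mean of at least 50 CPM over the 20 cells are described, which were 5065 of 20716. A gene low in 1 group could pass this limit through the other group alone. The summed CPM of a gene list takes in all its members with a row in the table, also those below this limit.

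The control cells held 41570 to 846819 counts and the knock cells 153051 to 735871, with medians of 346442 and 330390. Control cell 1 was the shallowest, with 6507 genes detected against 11124 to 14447 in the others, and a median correlation of log levels with the other cells of 0.48, against 0.77 between the remaining control cells and 0.84 between knock cells. At the other end, no gene exceeded 638 counts in any cell, while totals differed 20.4-fold. The 158 genes that reached over 400 counts took a share of the total that went down with depth (Spearman rho across the 20 cells -0.96), whereas genes that reached 100 to 200 counts took a growing share (0.94). A CPM value of an abundant gene was therefore tied to the depth of its cell, and none of these 158 genes was 2-fold apart. Each list below was also compared in the 7 control and 7 knock cells with 220000 to 520000 counts, a range chosen after seeing the data. Of the fibroblast markers, Vim was at control and knock medians of 1173 and 1179 CPM and S100a4 at 562 and 574. Sparc was at 637 and 570, Col1a1 at 62.9 and 66.5, and Fn1 at 59.3 and 49.4. Col1a2 was at 86.2 and 43.2, Pdgfrb at 91.9 and 52.5, and Pdgfra at 17.1 and 9.67. Col3a1 had medians of 0, and Thy1, Fap, Dcn and Lum have no row in the table. The 7 described fibroblast markers had 3 higher and 4 lower in knock cells, with a median log2 ratio of -0.16. The summed markers of epithelial, endothelial, lymphocyte and neural cells had group medians of 0 to 0.819 CPM. Muscle markers summed to medians of 37.8 and 63.6 CPM, with Des at 32.4 and 47.9. Of the macrophage markers, Cd68 was at medians of 24.8 and 24.6 CPM and Csf1r at 13.9 and 8.64, and Ptprc and Adgre1 have no row.

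**Figure D1:**
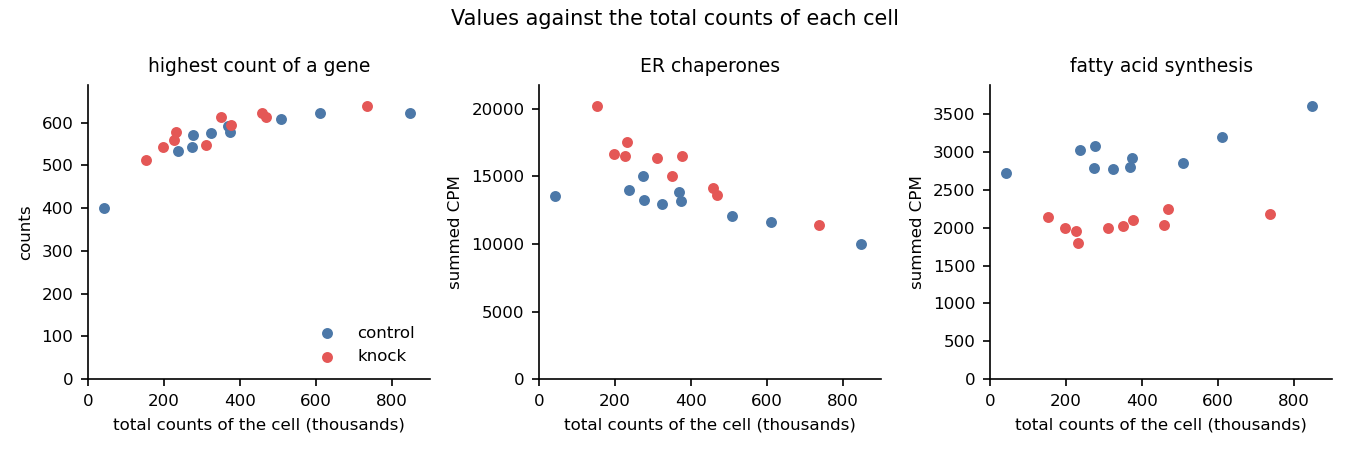
Values of each cell (points; blue control, red knock) against its total counts. The left panel gives the highest count of any gene, which levels off at up to 638; the middle panel the summed CPM of endoplasmic reticulum chaperone genes, which is lower in deeper cells; and the right panel the summed CPM of fatty acid synthesis genes, where every knock cell lies below every control cell.

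The targeted gene, Rrm2, lies at chr12:24708241-24714146 on the plus strand (GENCODE vM21, GRCm38). In control cells 1 to 10 its level was 529, 476, 356, 369, 576, 652, 467, 621, 439 and 431 CPM. In knock cells 1 to 10 it was 489, 354, 370.1, 325, 408, 385, 316, 331, 399 and 283 CPM. The medians were 471 and 362, a log2 ratio of -0.38, and the knock cell was higher in 14 of 100 pairs. The groups overlapped: knock cell 1 exceeded 6 control cells, and control cells 3 and 4 lay close to the knock median. The control median was 1.30 times the knock median, and Rrm2 was counted in every knock cell. Without control cell 1 the ratio was -0.37, and in the depth-matched cells -0.40. Rrm2 reached up to 372 counts in a cell. Genes that reached over 300 and up to 400 counts took a share that went down with depth (Spearman rho across all cells -0.78). Corrected for UMI collisions the Rrm2 ratio was -0.44, or -0.50 with the stronger correction. Over all 37 alternatives it lay between -0.50 and -0.25. The part of the levelling of high counts in this ratio was not tested.

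Most other described genes of dNTP supply were higher in the knock cells. Rrm1 ranged over 24.1 to 202 CPM in control cells (median 149) and 75.7 to 232 in knock cells (median 160.1), a log2 ratio of 0.11 with the knock cell higher in 63 pairs. Rrm2b was too low to be described, with medians of 23.2 and 17.3 CPM. Of 10 described genes of dNTP salvage and thymidylate synthesis, 9 were higher and 1 lower in the knock cells. Their median log2 ratio was 0.34, against 0.02 over all 5065 genes, of which 53.5% were higher. Thymidylate synthase, Tyms, which makes dTMP from dUMP, ranged over 96.2 to 246 CPM in control cells (median 182) and 168 to 359 in knock cells (median 253). It was the 1 separated member, at 90 pairs, where 1.99% of all genes were separated towards higher values. Without control cell 1, 0 members were, where 1.94% of all genes were. The dTMP kinase Dtymk had a log2 ratio of 0.55 (85 pairs), the dUTPase Dut 0.41 (84 pairs) and the nucleoside diphosphate kinase Nme1 0.29 (82 pairs). Tk1, thymidine kinase, had medians of 66.8 and 131 CPM with wide overlap (77 pairs). The summed list stood at 1516 to 2692 CPM in control cells (median 2045) and 2203 to 2593 in knock cells (median 2448), and the knock cell was higher in 90 pairs. The 1 control cell above all knock cells was control cell 8.

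Serine and folate one-carbon genes, which supply the methylene group for dTMP, had 9 higher and 4 lower of 13, with a median of 0.12 that turned to -0.04 among genes of at most 200 counts. Tyms, already counted above, and Psph were separated towards higher values, where 1.99% of all genes were. Psph, the last enzyme of serine synthesis, stood at 24.1 to 306 CPM in control cells (median 211) and 242 to 372 in knock cells (median 306). Without control cell 1 the list had 1 separated member, where 1.94% of all genes were separated towards higher values. Phgdh and Shmt2, enzymes of serine synthesis and of mitochondrial one-carbon transfer, had log2 ratios of 0.35 and 0.48 with 83 and 82 pairs. De novo purine and pyrimidine genes had 10 higher and 5 lower of 15 and a median of 0.14, or 0.01 without control cell 1.

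**Figure D2:**
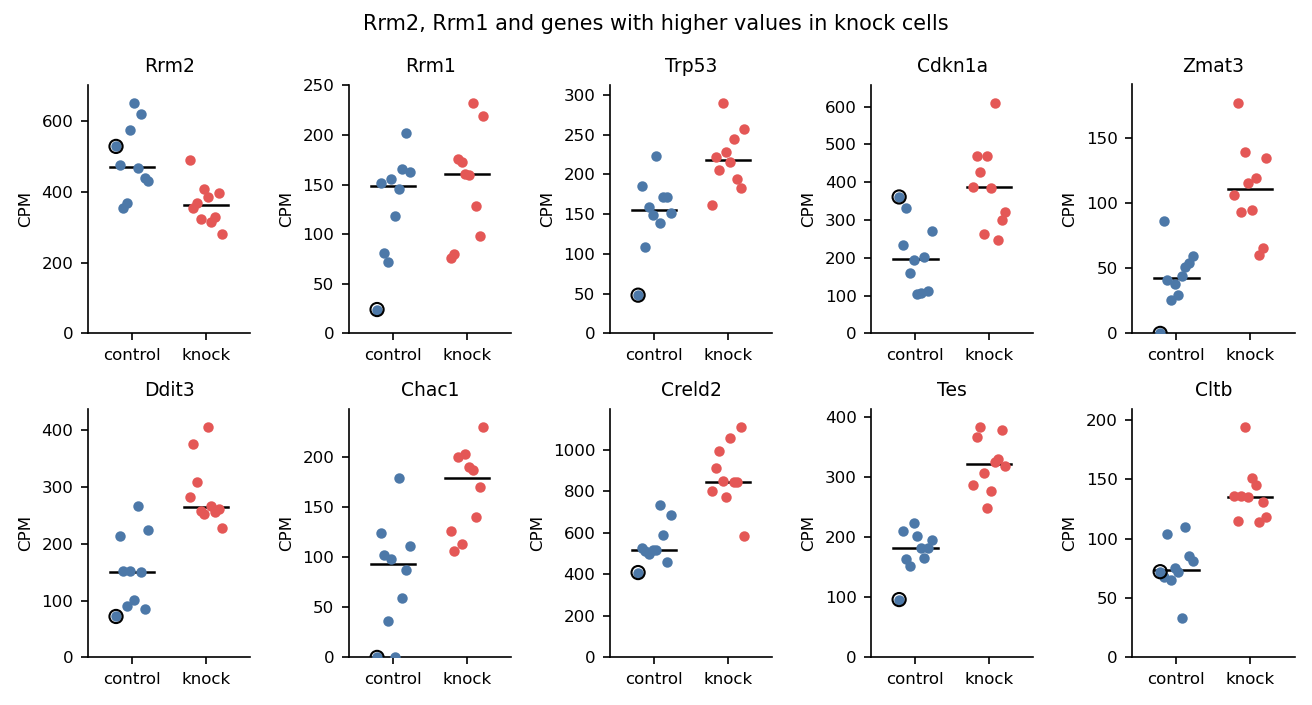
CPM of 10 genes in each of 10 control cells (blue) and 10 knock cells (red); the circled point is the shallow control cell 1 and lines are group medians. Rrm2 has a lower median in knock cells with overlap, Rrm1 overlaps throughout, and Tes and Cltb have every knock cell above every control cell.

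Across all genes, few stood apart. By medians, 25 genes (0.494%) were at least 2-fold higher in knock cells and 39 (0.77%) at least 2-fold lower. By pairs, 101 (1.99%) were separated towards higher and 43 (0.849%) towards lower values. Without control cell 1 the separated counts became 99 and 99 of 5093 (1.94% each), of which 85 and 38 were also separated with it. The share of higher genes among those separated was thus 70.1% with control cell 1 and 50% without it. Among 2-fold genes that share was 39.1%, but 52.2% with TMM factors, 49.2% with median-of-ratios factors, 21.2% with means in place of medians, and 47.9% in the depth-matched cells. Every control cell lay on the other side of every knock cell for 4 genes towards higher (0.079%) and 6 towards lower (0.118%).

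**Figure D3:**
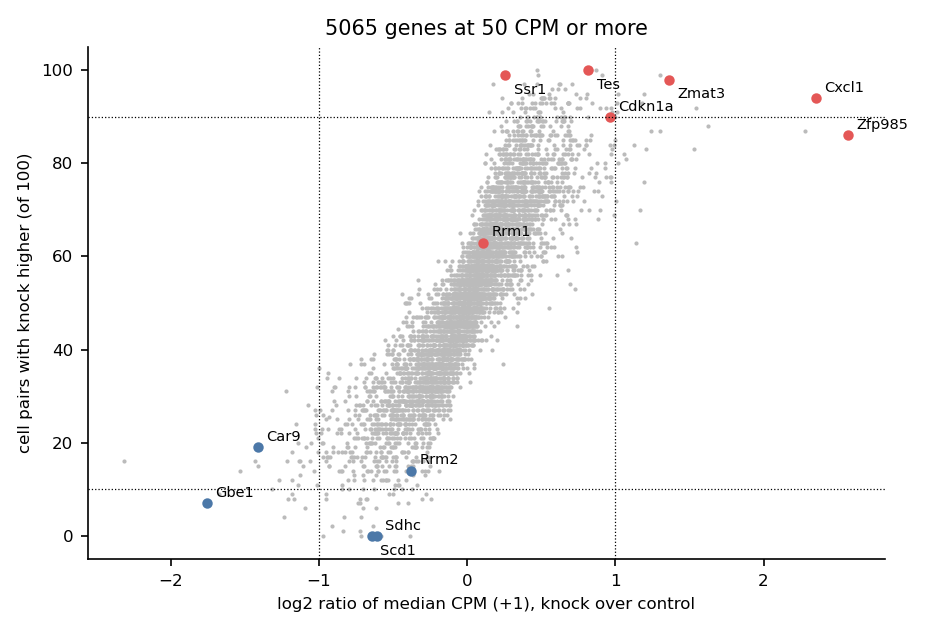
Each of 5065 genes by the log2 ratio of median CPM (horizontal) and by the number of the 100 cell pairs in which the knock cell was higher (vertical); dotted lines mark 2-fold and 10 or 90 pairs. Rrm2 lies at -0.38 and 14 pairs, and genes such as Ssr1 and Sdhc are separated with less than a 2-fold difference.

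Genes of lipid synthesis were lower in the knock cells. They are controlled by the membrane-bound factors SREBP-1 (Srebf1) and SREBP-2 (Srebf2), which enter the nucleus when sterols in the endoplasmic reticulum are low and act beside the CCAAT-binding factor NF-Y. Of 14 described genes of fatty acid synthesis, 13 were lower and 1 higher, with a median log2 ratio of -0.56 (-0.50 in the depth-matched cells). The summed list stood at 2718 to 3605 CPM in control cells (median 2887) and 1798 to 2245 in knock cells (median 2035), so that the groups did not overlap. Leading this sum were Scd1 and Scd2, the stearoyl-CoA desaturases that make monounsaturated fatty acids. Scd1 (chr19:44394455-44407879) ranged over 295 to 485 CPM in control cells (median 329) and 134 to 293 in knock cells (median 211), a log2 ratio of -0.64 with no overlap. Scd2, its neighbour at chr19:44293674-44306864, ranged over 332 to 769.8 CPM in control cells (median 439.9) and 162 to 326 in knock cells (median 294), a ratio of -0.58, again with no overlap. The 2 genes are similar copies, and the sources used here do not say how reads matching both were counted. Acly, which makes cytosolic acetyl-CoA from citrate, ranged over 96.2 to 304 CPM in control cells (median 205) and 95.1 to 152 in knock cells (median 126). Control cell 1 held the lowest control value, and without it the knock cell was higher in 1.11% of pairs. The elongase Elovl6 had a log2 ratio of -0.58 (12 pairs), Srebf1 of -0.72 (16 pairs) and Fasn, fatty acid synthase, of -0.37 (24 pairs).

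Sterol synthesis and uptake followed the same direction. Of 18 described genes, 16 were lower and 2 higher, with a median of -0.44 (-0.38 in depth-matched cells). The sum stood at 2622 to 4767 CPM in control cells (median 3538) and 2103 to 3103 in knock cells (median 2648), with the knock cell higher in 9 pairs. Lanosterol synthase, Lss, ranged over 72.2 to 189 CPM in control cells (median 128) and 37.3 to 109 in knock cells (median 66.0), a ratio of -0.95 with 8 pairs, where 0.849% of all genes were separated downwards. Squalene epoxidase, Sqle, had medians of 191 and 126 CPM and a ratio of -0.60, and in the depth-matched cells its groups did not overlap. In those 7 and 7 cells 24 of 5019 genes had no overlap towards lower values, against 6 of 5065 in all cells. Srebf2 itself ranged over 48.1 to 195 CPM in control cells (median 129) and 50.5 to 98.1 in knock cells (median 70.2), a ratio of -0.87 with 14 pairs, or 4.44% of pairs without control cell 1. With control cell 1 left out, 5 sterol genes and 4 fatty acid genes were separated towards lower values, in place of 2 and 3, while the share over all genes went from 0.849% to 1.94%.

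Promoters of both lists are shown for the letters CCAAT, the core that NF-Y binds, searched on both strands (ATTGG on the strand shown). Sequences are RefSeq promoters on GRCm38.p6, 250 bases before to 50 after a start site, printed 5′ to 3′ with every match in capitals. They were found for 13 sterol and 10 fatty acid genes among those described, and not for Scd1 or Scd2. The letters occurred in 12 of the 13 and 8 of the 10, against 41.1% of all 27025 genes with a promoter. The sterol response core CACCCCAC (GTGGGGTG on the other strand) was in 2 of 13 and 0 of 10, against 3.30% of all genes. Shown are Lss at chr10:76531355-76531654, plus strand; Mvk at chr5:114444019-114444318, plus strand; and Fasn at chr11:120824498-120824797, minus strand. Mvk, mevalonate kinase, had 5 matches and a log2 ratio of -1.01 (21 pairs), Fasn 3, of which 1 overlapped another, and Lss 1. A match describes these letters only.
Lss: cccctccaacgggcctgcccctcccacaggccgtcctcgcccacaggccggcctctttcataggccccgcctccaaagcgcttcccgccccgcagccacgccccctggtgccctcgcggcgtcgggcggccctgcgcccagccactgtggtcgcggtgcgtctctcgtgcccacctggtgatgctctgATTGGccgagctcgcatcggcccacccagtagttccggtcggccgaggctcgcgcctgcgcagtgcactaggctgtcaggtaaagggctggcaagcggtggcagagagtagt
Mvk: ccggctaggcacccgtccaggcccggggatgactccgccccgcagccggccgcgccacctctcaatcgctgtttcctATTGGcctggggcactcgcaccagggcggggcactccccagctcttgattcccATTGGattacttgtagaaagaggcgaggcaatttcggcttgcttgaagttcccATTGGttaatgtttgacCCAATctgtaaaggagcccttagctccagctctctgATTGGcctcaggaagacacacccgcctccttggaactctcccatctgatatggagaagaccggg
Fasn: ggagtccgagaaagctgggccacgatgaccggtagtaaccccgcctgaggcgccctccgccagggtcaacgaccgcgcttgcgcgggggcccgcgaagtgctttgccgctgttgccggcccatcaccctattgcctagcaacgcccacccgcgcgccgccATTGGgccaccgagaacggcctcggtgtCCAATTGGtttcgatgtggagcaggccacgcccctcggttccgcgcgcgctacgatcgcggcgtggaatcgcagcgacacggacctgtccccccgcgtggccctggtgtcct

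Genes induced by low oxygen were also lower in the knock cells. Their best known regulator is HIF-1, whose Hif1a subunit is hydroxylated and degraded when oxygen is present. Of 27 described hypoxia-inducible genes, 25 were lower and 2 higher, with a median of -0.75 (-0.68 in depth-matched cells). By medians, 8 of the 27 were at least 2-fold lower, where 0.77% of all genes were. Gbe1, among these, passed the limit of 50 CPM only through control cells, as every knock cell was below it. With a limit of 100 CPM, 8 of all 2656 genes were 2-fold lower. The sum ranged over 3832 to 9731 CPM in control cells (median 5711) and 3258 to 4849 in knock cells (median 3809), and the knock cell was higher in 5 pairs. Gbe1, the glycogen branching enzyme, at chr16:70313949-70569716, ranged over 18.2 to 257 CPM in control cells (median 56.6) and 8.85 to 42.1 in knock cells (median 16.04), a log2 ratio of -1.76 with 7 pairs. Cp, ceruloplasmin, a copper-containing ferroxidase, ranged over 30.9 to 463 CPM in control cells (median 101) and 0 to 84.9 in knock cells (median 30.8), a ratio of -1.67 with 9 pairs. The groups overlapped for these 2 genes, since single control cells reached down to 18.2 and 30.9 CPM. Plod1, a collagen lysyl hydroxylase, ranged over 24.1 to 279 CPM in control cells (median 197) and 70.6 to 159 in knock cells (median 109.8). The lowest control value of Plod1 was that of control cell 1, and the next lowest was 153, so that 1.11% of pairs had the knock cell higher without it. The glucose transporter Slc2a1 ranged over 48.1 to 346 CPM in control cells (median 174) and 51.6 to 131 in knock cells (median 89.6), a ratio of -0.95. Car9, a membrane carbonic anhydrase, ranged over 25.2 to 648 CPM in control cells (median 263) and 17.7 to 187 in knock cells (median 98.2), a ratio of -1.41 with wide overlap (19 pairs). Bnip3, a mitophagy receptor, had a ratio of -1.14 (20 pairs), and Hif1a itself -0.50 (17 pairs).

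The higher members of this list were Mif, a secreted cytokine, at a log2 ratio of 0.12 with wide overlap (60 pairs), and Tfrc. Tfrc, the transferrin receptor that brings iron into cells, ranged over 0 to 136 CPM in control cells (median 68.1) and 55.5 to 199.8 in knock cells (median 137). Its medians were just over 2-fold apart (85 pairs), but the log2 ratio was 0.74 in depth-matched cells. Slc11a2, the transporter that moves iron out of endosomes, ranged over 14.5 to 126 CPM in control cells (median 75.0) and 25.2 to 192 in knock cells (median 149), a ratio of 0.98 with 90 pairs. The 13 described iron and metallothionein genes as a list had 7 higher and 6 lower, with a median of 0.05 whose sign turned in 10 of 38 alternatives. Its members separated towards higher values numbered 1 with control cell 1 and 0 without it, where 1.99% and 1.94% of all genes were.

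Glycolysis enzymes had 4 higher and 12 lower of 16 and a median of -0.25. Pgam1, phosphoglycerate mutase, was the 1 separated member (ratio -0.25, 8 pairs), where 0.849% of all genes were separated downwards. The list sum followed depth in the knock cells (rho -0.90, n = 10). By this sum, no knock cell lay above a control cell in the depth-matched cells, against 27 of 100 pairs in all cells. A lack of overlap is easier to reach among 7 and 7 cells, and the part of depth in that difference was not tested. Glycogen genes were split, with 4 higher and 4 lower. Gbe1 and the phosphoglucomutase Pgm1 were separated towards lower values, where 0.849% of all genes were. Pgm1 ranged over 72.2 to 424 CPM in control cells (median 209) and 35.3 to 103 in knock cells (median 89.7), and without control cell 1 its groups did not overlap.

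The core of the HIF binding site is A or G followed by CGTG. Only the letters ACGTG were searched, on both strands (CACGT), in the same RefSeq promoters. They were in 16 of 21 described hypoxia-inducible genes with a promoter, against 21.8% of all 27025 genes with a promoter, described or not. Among the 8 of these 21 genes with at most 20 pairs, 5 held the letters, and the promoters of Gbe1, Cp and Plod1 did not in this window. Mif and Tfrc, which were higher in the knock cells, also held them. The other letters, CCAAT, were in 11 of the 21, against 41.1% of all genes. ACGTG was in 5 of 10 fatty acid genes and 3 of 13 sterol genes. Promoters with matches in capitals are shown: Car9 at chr4:43506776-43507075, plus strand; Slc2a1 at chr4:119108495-119108794, plus strand; and Bnip3 at chr7:138909457-138909756, minus strand. In Bnip3 the letters read the same on both strands and give 2 overlapping matches.
Car9: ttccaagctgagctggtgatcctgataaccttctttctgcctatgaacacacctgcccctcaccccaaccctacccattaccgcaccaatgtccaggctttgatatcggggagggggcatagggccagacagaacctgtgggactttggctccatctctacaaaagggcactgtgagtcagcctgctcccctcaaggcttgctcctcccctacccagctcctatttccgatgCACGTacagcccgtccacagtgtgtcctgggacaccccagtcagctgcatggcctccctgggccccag
Slc2a1: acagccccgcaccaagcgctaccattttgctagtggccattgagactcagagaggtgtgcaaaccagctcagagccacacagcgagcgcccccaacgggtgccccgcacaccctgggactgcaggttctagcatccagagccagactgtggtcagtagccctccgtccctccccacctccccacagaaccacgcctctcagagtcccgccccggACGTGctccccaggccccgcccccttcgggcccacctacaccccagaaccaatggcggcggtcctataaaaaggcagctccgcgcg
Bnip3: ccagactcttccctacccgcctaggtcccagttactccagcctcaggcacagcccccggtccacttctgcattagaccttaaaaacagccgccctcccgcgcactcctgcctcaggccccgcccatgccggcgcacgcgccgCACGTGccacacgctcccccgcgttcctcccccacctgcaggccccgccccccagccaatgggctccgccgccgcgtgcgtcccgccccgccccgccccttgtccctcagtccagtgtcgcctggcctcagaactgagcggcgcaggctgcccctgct

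**Figure D4:**
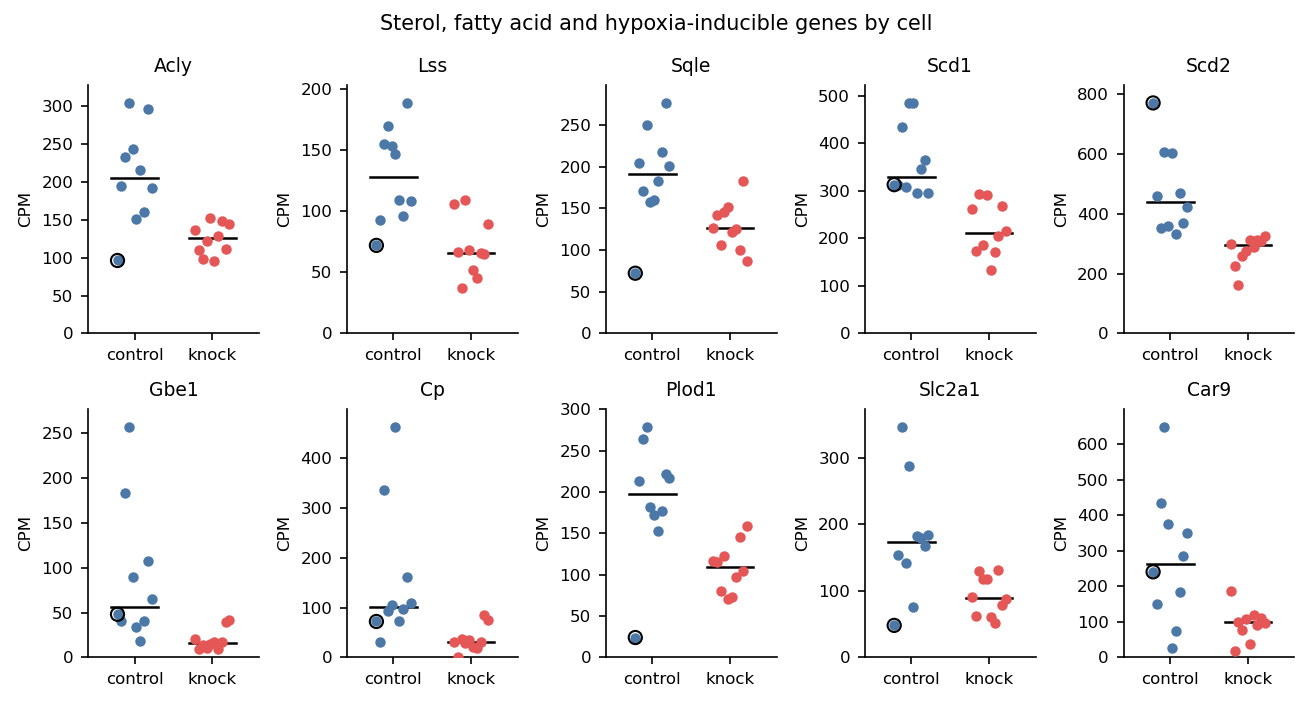
CPM of 5 lipid genes (top) and 5 hypoxia-inducible genes (bottom) in each control cell (blue) and knock cell (red); the circled point is control cell 1 and lines are group medians. Scd1 and Scd2 show no overlap, while Car9 and Gbe1 vary widely among control cells and are low in most knock cells.

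Genes of the p53 response were higher in the knock cells. The tumour suppressor p53 raises transcription of cell cycle inhibitors, repair genes and apoptosis genes after DNA damage or replication stress. Of 20 described genes of the p53 list, in which Trp53 itself is counted, 18 were higher and 2 lower. Their median was 0.50 (0.63 in depth-matched cells). The sum of all 40 members with a row ranged over 2239 to 4715 CPM in control cells (median 2642). In knock cells it ranged over 2823 to 5502 CPM (median 3768). The knock cell was higher in 86 pairs, or 94.4% without control cell 1. Cdkn1a, which encodes the cyclin-dependent kinase inhibitor p21, at chr17:29090976-29100727, ranged over 105 to 361 CPM in control cells (median 198) and 248 to 609 in knock cells (median 387). Its log2 ratio was 0.96 with 90 pairs. Zmat3, an RNA-binding protein and p53 target, ranged over 0 to 86.5 CPM in control cells (median 42.5) and 59.9 to 177 in knock cells (median 111), a ratio of 1.36 with 98 pairs. Plk2, a polo-like kinase, ranged over 24.1 to 169 CPM in control cells (median 60.6) and 51.9 to 216 in knock cells (median 145), where control cell 3 held the highest control value. Trp53 itself, which encodes p53, ranged over 48.1 to 223 CPM in control cells (median 155) and 161 to 289.9 in knock cells (median 219), a ratio of 0.49 with 90 pairs. Bax, a p53 target that permeabilises mitochondria, ranged over 96.2 to 313 CPM in control cells (median 250) and 268 to 454 in knock cells (median 354) with 94 pairs, while the 10 described genes of the BCL2 family and death receptors had 4 higher and 6 lower. Sertad1 went the other way (ratio -0.49, 10 pairs). The p53 targets separated towards lower values numbered 1 with control cell 1 and 0 without it, where 0.849% and 1.94% of all genes were.

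Cell cycle genes were split between the directions. Of 33 described S phase and replication genes, 20 were higher and 13 lower, and none was 2-fold apart or separated. The sum of all 49 members with a row ranged over 1804 to 5279 CPM in control cells (median 3084). In knock cells it ranged over 2189.7 to 5759 CPM (median 3438). Of 55 G2 and mitosis genes, 26 were higher and 29 lower, and the median of -0.02 turned its sign in 14 of 38 alternatives. The sum ranged over 3319.7 to 15113 CPM in control cells (median 10009) and 8015 to 15356 in knock cells (median 10842). No knock cell was as low as control cells 3 and 4. Ube2c, a ubiquitin enzyme of mitotic exit, varied within the knock cells from 258 to 956 CPM. Genes of the replication checkpoint and repair had 6 higher and 11 lower of 17, with none separated, and a median of -0.20 that was 0.28 at a level of at least 100 CPM. Clspn, an adaptor of the checkpoint kinase, had medians of 33.7 CPM in control cells and 59.0 in knock cells, with 72 pairs. Replication-dependent histones were low, and 0 of 26 with a row reached 50 CPM.

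Stress genes of the endoplasmic reticulum and of ATF4 leaned higher in the knock cells. ATF4 is the factor of the integrated stress response, translated when eIF2 is phosphorylated. Of 31 described genes of that response, 21 were higher and 10 lower, with a median of 0.17 (0.08 depth-matched). Ddit3, the factor CHOP, ranged over 72.2 to 266 CPM in control cells (median 151) and 228 to 406 in knock cells (median 265), a log2 ratio of 0.81 with 95 pairs. Chac1, which degrades glutathione, ranged over 0 to 179 CPM in control cells (median 92.8) and 106 to 229.7 in knock cells (median 178) with 92 pairs. Atf4 ranged over 313 to 619.9 CPM in control cells (median 501) and 477 to 756 in knock cells (median 674), and its level followed depth in both groups (rho -0.80 in the 9 deeper control cells and -0.77 in knock cells). Atf5, a related factor of the same list, differed in the other direction without overlap. It ranged over 252 to 481 CPM in control cells (median 298) and 96.7 to 242 in knock cells (median 229), a ratio of -0.38.

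Of 30 described endoplasmic reticulum chaperone and unfolded protein genes, 25 were higher and 5 lower, and 6 were separated towards higher values, where 1.99% of all genes were. Creld2, a secreted stress protein of the endoplasmic reticulum, ranged over 409 to 737 CPM in control cells (median 517) and 586 to 1111 in knock cells (median 848), a ratio of 0.71 with 97 pairs. Herpud1, which acts in degradation from that compartment, ranged over 168 to 365 CPM in control cells (median 265) and 270 to 652 in knock cells (median 421) with 96 pairs. Ssr1, a subunit of the translocon-associated complex, ranged over 215 to 324 CPM in control cells (median 294) and 319 to 396 in knock cells (median 352) with 99 pairs at a ratio of only 0.26. The sum of the list ranged over 9966 to 15038 CPM in control cells (median 13198) and 11418 to 20183 in knock cells (median 16417). It followed depth closely, at rho -0.90 in the 9 deeper control cells and -0.93 in the 10 knock cells, and in the depth-matched cells the knock cell was higher in 89.8% of pairs.

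The proteasome list was nearly uniform in direction. Of 32 subunit genes, 31 were higher and 1 lower, with a median of 0.22, where 53.5% of all genes were higher. The sum ranged over 6399 to 9991 CPM in control cells (median 8222) and 9162 to 10864 in knock cells (median 9974) with 89 pairs and went with depth little (rho 0.07 and 0.09). Psmb1, a subunit of the catalytic core, ranged over 96.2 to 445 CPM in control cells (median 370.3) and 412 to 601 in knock cells (median 484). Its lowest control value was that of control cell 1, and the ratio was 0.39 with 97 pairs. Psma5 and Psma2 had ratios of 0.51 and 0.52, each with 94 pairs. All 8 genes of the TRiC chaperonin, which folds actin and tubulin, were higher, with a median of 0.18. Ribosome biogenesis genes had 28 higher and 5 lower of 33 and a median of 0.29. Nolc1, a nucleolar protein, had a ratio of 0.61 with 96 pairs, and Dkc1, the pseudouridine synthase dyskerin, 0.47 with 86. Aminoacyl-tRNA synthetases had 16 higher and 4 lower of 20. Ribosomal protein genes themselves had 45 higher and 39 lower of 84 and a median of 0.01. By pairs, 68 of them had the knock cell higher in over 50 pairs and 12 in under 50, with 3 separated towards higher values (1 without control cell 1), where 1.99% of all genes were (1.94% without it). The list sum followed depth (rho -0.85 in the 9 deeper control cells and -0.94 in knock cells). Nuclear genes of oxidative phosphorylation had 42 higher and 27 lower of 69 and a median of 0.02.

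Secreted and matrix genes differed in both directions. Cxcl1, a chemokine that attracts neutrophils, ranged over 0 to 94.8 CPM in control cells (median 19.9) and 25.8 to 406 in knock cells (median 106), a ratio of 2.36 with 94 pairs. A control value of 94.8 CPM in control cell 10 stood far above the other control cells. Lcn2, lipocalin 2, which binds iron-carrying siderophores, ranged over 21.3 to 201 CPM in control cells (median 75.9) and 85.8 to 451 in knock cells (median 188) with 87 pairs. Ccl7, a monocyte chemokine, had medians of 161 and 264 CPM (85 pairs). The 10 described chemokine, cytokine and NF-kB genes had 6 higher and 4 lower, and their median of 0.15 was -0.28 among genes of at most 200 counts. Of 19 described matrix genes, 13 were lower and 6 higher. Col4a1, a basement membrane collagen, ranged over 135 to 293 CPM in control cells (median 191) and 78.4 to 139 in knock cells (median 107), a ratio of -0.84 with 1 pair. Lamc1, laminin gamma 1, ranged over 96.2 to 185 CPM in control cells (median 133) and 63.9 to 124 in knock cells (median 86.7) with 6 pairs. Col6a3, of collagen VI, ranged over 48.1 to 393 CPM in control cells (median 274) and 70.9 to 191 in knock cells (median 109.6), and without control cell 1, at 2 counts of this gene, its groups did not overlap. Lysosome and autophagy genes had 7 higher and 23 lower of 30, with a median of -0.18, and genes of the NRF2 and glutathione list 8 higher and 15 lower of 23. Gstm1, a glutathione transferase of the latter list, ranged over 217 to 601 CPM in control cells (median 471) and 268 to 391 in knock cells (median 303) (12 pairs, or 2.22% without control cell 1).

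Among the 10 genes without overlap, Scd1, Scd2, Atf5 and Sdhc were lower. Sdhc, a membrane subunit of succinate dehydrogenase, at chr1:171127165-171150603, ranged over 135 to 195 CPM in control cells (median 153) and 77.2 to 126 in knock cells (median 100.1), a ratio of -0.61. The higher ones were Cltb, Car6, Tes and Bcat1. Tes, the focal adhesion protein testin, at chr6:17065149-17105828, ranged over 96.2 to 224 CPM in control cells (median 182) and 248 to 383 in knock cells (median 322), a ratio of 0.82. Car6, a secreted carbonic anhydrase, at chr4:150187015-150201332, ranged over 25.2 to 380.1 CPM in control cells (median 299) and 381 to 677 in knock cells (median 535), so the groups touched within 1 CPM. Cltb, clathrin light chain B, ranged over 32.8 to 109.8 CPM in control cells (median 73.7) and 114 to 194 in knock cells (median 135), and knock cell 4 stood above the others. Bcat1, the cytosolic transaminase of branched-chain amino acids, ranged over 48.1 to 371 CPM in control cells (median 319) and 409 to 488 in knock cells (median 443). Leaving out cells cannot create overlap, so these calls held by construction without control cell 1 and in the depth-matched cells. Over all genes, those without overlap towards higher and lower values numbered 5 and 3 with TMM factors and 4 and 2 with median-of-ratios factors. Thinning to 150000 counts gave 0 and 3. Without control cell 1, 5 genes were without overlap towards higher (0.0982%) and 10 towards lower values (0.196%). The additional named genes were then Col6a3, Pgm1 and Ehd2 towards lower values and Tmed9 towards higher, of which Ehd2 and Tmed9 were chosen after their values were seen. Tmed9, a cargo receptor of the early secretory pathway, had medians of 313 and 428 CPM, and Ehd2, an ATPase of caveolae, 226 and 129.

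The other largest ratios came from genes of low level with wide spread. Zfp985, one of a family of similar zinc finger genes whose reads may be shared among copies, ranged over 0 to 102 CPM in control cells (median 13.6) and 13.1 to 279.6 in knock cells (median 85.8), a ratio of 2.57. Elmo1, an activator of the GTPase Rac, had a ratio of 1.54 with 92 pairs, Tmem171 1.62 with 88 and Scamp5, a secretory carrier membrane protein, 1.53 with 83. Zfp385a, a zinc finger protein that binds p53, was tighter, at 14.6 to 67.7 CPM in control cells (median 44.7) and 59.9 to 142 in knock cells (median 111) with 99 pairs. On the lower side Trib2, a pseudokinase, had a ratio of -1.54 that was -0.76 in depth-matched cells. Errfi1, a feedback inhibitor of the EGF receptor, had -1.41 (15 pairs), protein kinase C delta, Prkcd, -1.23 (4 pairs), and Ndufa4l2, a mitochondrial protein induced by hypoxia, -1.43 (16 pairs).

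Cells of a group also differed among themselves. Beyond counting error, the coefficient of variation of a gene had a median of 34.4% over the 10 control cells, 25.5% without control cell 1, and 20.2% over the knock cells. Control cells 3 and 4 had the lowest G2 and mitosis sums, 4670.4 and 3320 CPM, the highest hypoxia sums, 8556 and 9731, and the lowest Rrm2 of the control cells. The hypoxia sums of the other 8 control cells were 3832 to 6163 CPM, and of these only control cell 7 lay within the knock range. Across control cells the hypoxia sum went down as the mitotic sum went up (Spearman rho -0.85, n = 10, and -0.83 without control cell 1), and across knock cells the value was -0.32. In both groups the p53 target sum went with Cdkn1a, itself a member (rho 0.88 and 0.92). These cells shared 1 library and differed in depth, and the values are descriptions only.

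**Figure D5:**
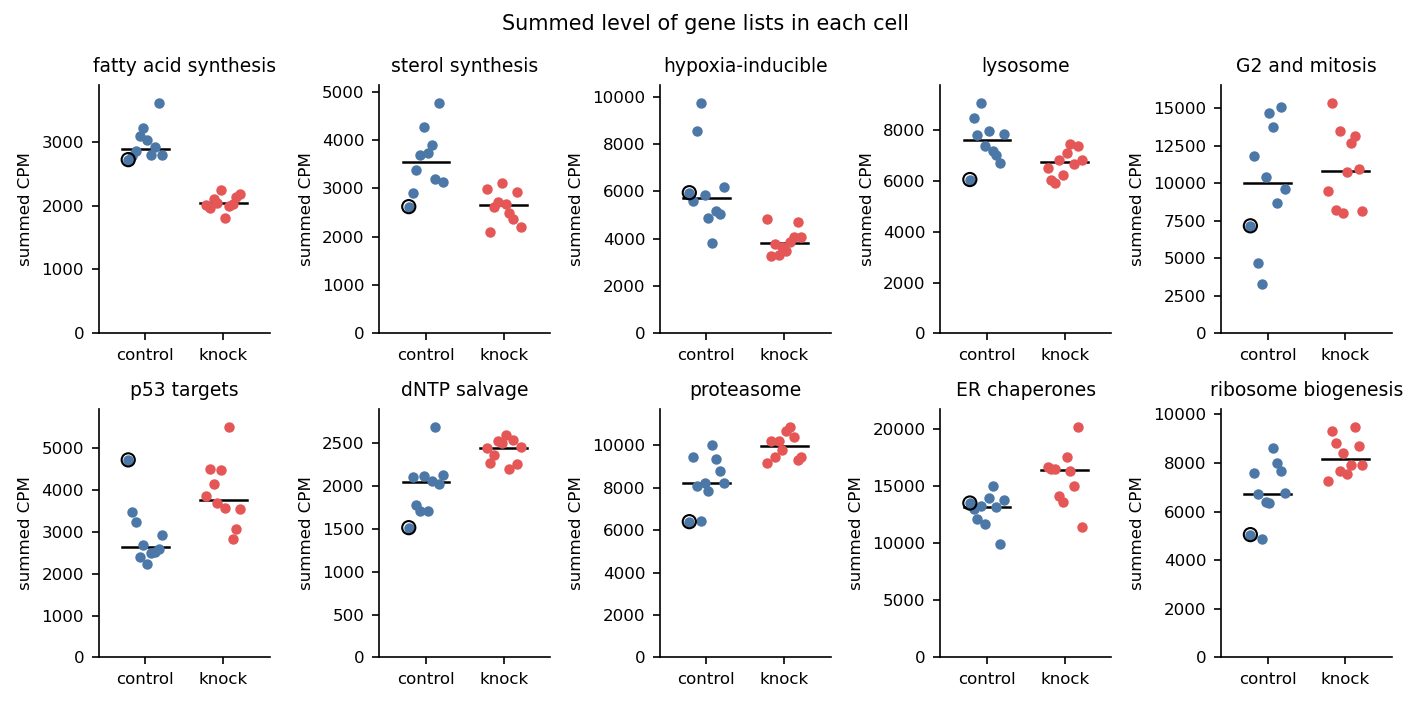
Summed CPM of all members with a row for 10 gene lists in each control cell (blue) and knock cell (red); the circled point is control cell 1 and lines are group medians. The fatty acid sums of 1798 to 2245 CPM in knock cells lie below all control cells, the mitotic sums overlap, and control cells 3 and 4 have the highest hypoxia sums, 8556 and 9731 CPM.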

How the data were processed

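The values are raw counts of UMIs, deposited by the authors as whole numbers for each gene symbol and column, in a table that names UMIs. Reads were handled with STAR 2.7.11b, Picard and FastQC, according to the submitters' processing notes, which list GRCm38 beside GRCh38 as builds. The sources used here do not name the counter, its use of strand or of shared reads, or any filter on cells and doublets. All 20 columns were used. Coordinates are from GENCODE vM21 (GRCm38), 1-based, and 154 of 155 named genes were matched. Of these, 59 overlap a gene on the opposite strand and 37 one on the same strand, whose reads may not be told apart.

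Counts were divided by the column total to give CPM. A symbol listed in 2 rows was summed. The 21 symbols turned into dates, with 0.206% of the counts, stayed in the totals and were not named. A count of 1 was worth 1.18 CPM in the deepest cell and 24.1 in control cell 1, and 3 counts there 72.2 CPM, which limits what a value of 0 shows. PCR and counting error are not separated from cell differences by these values.

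Named genes were Rrm2, Rrm1, Rrm2b and Trp53, the 10 largest ratios in each direction with at least 80 or at most 20 pairs, all genes without overlap, and up to 4 members of each of 36 lists with pair counts farthest from 50. Unnamed gene models, date symbols and viral genes stayed out. Some genes that the rule names are not reported here. Promoter examples, marker genes and Srebf1, Fasn, Mvk, Bnip3, Mif and Hif1a were named outside this rule. Members, lists and alternatives were chosen with earlier results of these data known.

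Alternatives were means or summed counts in place of medians, TMM factors (edgeR 4.0.16) and median-of-ratios factors (DESeq2 1.42.0), totals that omit genes of ribosomal proteins and mitochondria, thinning to 40000 and 150000 counts, other level limits, pseudocounts and folds, a correction for UMI collisions, genes of at most 200 counts, and each cell left out. Depth-matched cells were added after seeing the data. The calculation was tested on simulated counts that had no ceiling, so that test does not cover the levelling of high counts. Python 3.11.15 with pandas 2.3.3, numpy 2.4.6 and scipy 1.17.1, matplotlib 3.10.9 for plots, and R 4.3.3 were used.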

Additional observations from a re-analysis of the deposited data

Results flagged for a closer look

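Among 122 groups of 10 cells whose values are given, 14 had a lowest or highest cell set apart from the rest by a gap past Dixon's critical value. The rule was used only to pick values. It would pass about 1 in 20, or 6.1, of independent and normally spread groups. These groups share cells and many genes were named for large differences, so 14 cannot be weighed against 6.1. Control cell 1 accounted for 7 of them. Its ribosomal protein share was 10.8% and its mitochondrial share 1.44%, each the highest of the control cells. It was the lowest control cell for Plod1 (24.1 CPM), Col6a3 (48.1), Bcat1 (48.1) and Psmb1 (96.2), and the highest for summed p53 targets (4715 CPM). These levels rest on 1 to 4 counts for the single genes.

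Other control cells stood apart for single values. Plk2 was 169 CPM in control cell 3, Cxcl1 94.8 in control cell 10, Car6 25.2 in control cell 6 and Zfp985 101.5 in control cell 5. The summed dNTP salvage genes reached 2692 CPM in control cell 8. Among knock cells, Atf5 was lowest at 96.7 CPM in knock cell 7, and Cltb highest at 194 CPM in knock cell 4.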

How the results depend on the processing

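The main counts were 25 genes 2-fold higher and 39 lower, 101 separated higher and 43 lower, and 4 and 6 without overlap. Mean CPM gave 63 genes 2-fold lower and summed counts 16 higher. Genes without overlap on the lower side numbered 3 with TMM factors, 2 with median-of-ratios factors and 3 with the stronger collision correction. Without control cell 1, 99 were separated lower and 10 had no overlap lower. Thinning to 40000 counts gave 155 and 158 2-fold, 23 and 7 separated, 1 and 0 without overlap, and Rrm2 higher in 30 pairs. Thinning to 150000, which left out control cell 1, gave 48 and 65 separated and 0 and 3 without overlap. A limit of 20 CPM gave 79 and 156 2-fold and 66 separated lower, a limit of 100 CPM 3 and 8 2-fold, and no limit 970 and 1055 2-fold and 78 separated lower. At 1.5-fold, 221 and 264 passed. Among genes of at most 200 counts, 56 and 25 were separated and 1 and 2 had no overlap. In depth-matched cells, with 49 pairs and so a looser threshold, 46 were 2-fold higher, 126 separated lower, and 27 and 24 without overlap. Leaving out each cell gave an Rrm2 log2 ratio of -0.41 to -0.35 and 8.89% to 15.6% of pairs, 20 to 43 and 29 to 49 genes 2-fold, 97 to 133 and 37 to 99 separated, and 4 to 8 and 6 to 10 without overlap. Over 1.5 times the main count of 2-fold higher genes came without control cell 9 (38) or 10 (43). For genes without overlap higher, 7 came without control cell 2 or knock cell 2 and 8 without control cell 7 or knock cell 10. The cause of these shifts was not tested.

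The median ratios of the sterol, fatty acid, hypoxia, glycolysis, lysosome, p53, dNTP salvage, ATF4, endoplasmic reticulum, proteasome and ribosome biogenesis lists kept their sign under all 38 alternatives, and the Rrm2 ratio under all 37. Some alternatives could not turn a sign. Level limits, folds and pseudocounts cannot turn the ratio of a single gene, and a fold does not enter a list median. The runs that leave out a cell share all the other cells, so these counts are not independent checks. Rrm2b turned to 0.95 and 0.40 after thinning to 40000 and 150000 counts. Depth limits low genes most: 3 counts equal 72.2 CPM in control cell 1. No paired analysis was possible because cell numbers name columns of 1 sample and the results come from no test.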

Other observations

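Of the lists outside the comparisons above, splicing factors and cytoskeletal targets of YAP and SRF lay near the median of all genes. Immediate early genes leaned lower and heat shock genes higher. The 51 splicing factor genes had 31 higher and 20 lower and a median log2 ratio of 0.05, with none separated. The 20 described cytoskeletal targets of YAP and SRF had 11 higher and 9 lower. The sum of this list followed depth (rho -0.90 in the 9 deeper control cells, -0.83 in knock cells). Immediate early genes, which respond to growth factors within minutes, had 5 higher and 11 lower of 16, with a median of -0.18. Junb, of the AP-1 family, had medians of 47.8 and 37.3 CPM, while Myc went the other way at 293 and 365 (72 pairs). Heat shock and cytosolic chaperone genes had 17 higher and 5 lower of 22, with a median of 0.11. Dnaja1, a co-chaperone of Hsp70, had a ratio of 0.32 with 85 pairs. Of the lipid storage markers, Lpl, lipoprotein lipase, had medians of 294 and 211 CPM (26 pairs) and Fabp4, a fatty acid binding protein, 372 and 399 (58 pairs), and Adipoq has no row.

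Genes detected per cell were compared after thinning each cell to 150000 counts, which left out control cell 1. They numbered 10756 to 12095 in 9 control cells (median 11606) and 10941 to 11816 in 10 knock cells (median 11332), with overlap throughout.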
